A study of Mus musculus with 44 samples.

Results

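Gene expression was compared between dendritic cells of Bmal1ΔcDC mice and of control mice, both inoculated with tumour cells during the dark phase. These are 16 of the 44 libraries, chosen by their labels alone: 6 labelled KO (3 at ZT15 and 3 at ZT21) and 10 labelled WT (5 at each of these timepoints). Zeitgeber time (ZT) counts hours from lights on in a 12 h light and 12 h dark cycle. All 16 mice received B16-F10-OVA cells, a mouse melanoma line that expresses ovalbumin, and CD11c+MHCIIhigh cells were sorted from the draining inguinal lymph node 24 h later, at the same ZT. Each library came from 1 mouse, and all mice were females of 8 to 12 weeks. Bmal1ΔcDC mice carry Clec9a-cre (heterozygous) and Bmal1 flox (homozygous) alleles, so that recombination is driven by the promoter of Clec9a, which is active in conventional dendritic cells and their precursors. The labels give the controls as WT and say nothing of their strain, litter or flox alleles. Control mice injected with PBS at ZT15 and ZT21 (sham, 6 libraries) were used for levels, and the light-phase libraries (ZT3 and ZT9, 6 labelled KO and 10 labelled WT with tumour cells) as an independent set from the same kinds of mice.

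BMAL1, encoded by Arntl, pairs with CLOCK and binds E-boxes, short DNA motifs in the promoters of its target genes. Among these targets are the Per and Cry genes, whose proteins inhibit the pair, and Nr1d1 and Nr1d2, whose REV-ERB proteins repress Arntl in competition with the ROR receptors, which activate it. Migratory dendritic cells carry antigen from the skin to the lymph node, where they present it to T cells with co-stimulatory ligands such as CD80.

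Markers of migratory dendritic cells were abundant in both genotypes. The 20 genes of that list (Ccr7, Fscn1, Ccl22 and others) summed to between 42239 and 50504 CPM (reads per gene scaled to the library's total) in control libraries. In Bmal1ΔcDC libraries they summed to between 40930 and 55254 CPM. These sums do not test the purity of the sorted cells. The number of reads on genes, recovered from the steps in the deposited CPM values, was 20088012 to 28962671 in control, 29406729 to 46028918 in Bmal1ΔcDC and 30611830 to 49590055 in dark-phase sham libraries. The ranges of the 2 genotypes with tumour cells did not overlap, so depth and genotype cannot be told apart, and the labels give no sequencing batch. Pairwise correlations within a group were 0.952 to 0.982, except for Bmal1ΔcDC at ZT21 (0.924 to 0.962), where replicate 1 stood apart on the second principal component by 2.99 SD. Results are given without this library where it changes them. The first principal component (26.5% of the variance) separated the genotypes. Each mouse gave 1 library, and p-values measure the spread between these libraries. The paper states that the mice came from separate independent experiments, and the labels do not say which library belongs to which. The model held genotype and timepoint but no term for experiment. The part of experiments in the spread between libraries or in the genotype differences was not tested.

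Differences between genotypes were common and mostly towards higher values in Bmal1ΔcDC libraries. Of 11963 genes tested, 3280 (27.4%) differed at an adjusted p under 0.05 in a linear model with timepoint as covariate (limma). Of these, 2578 were higher in Bmal1ΔcDC libraries (21.5% of all genes) and 702 were lower (5.87%). A difference of at least 2-fold was found for 629 of the called genes (5.26%), 510 higher and 119 lower. The median difference over all genes was 0.19 on the log2(CPM + 0.5) scale, on which every difference below is expressed, and differences of single genes and lists should be read relative to it. With median-of-ratios scaling this median was 0.03, and 1149 genes were higher and 1255 lower. In 474 genes every Bmal1ΔcDC library lay above every control library, and in 196 every one lay below (5.6% of the genes together). Without Bmal1ΔcDC ZT21 replicate 1, 2364 genes were higher and 614 lower.

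Arntl itself (chr7:113178471-113314126, GRCm38) was not lower in the libraries labelled Bmal1ΔcDC. Its level was 8.67, 13.5 and 20.3 CPM (lowest, median and highest) in the 10 control libraries and 13.9, 19.6 and 38.0 CPM in the 6 Bmal1ΔcDC libraries. Dark-phase sham libraries spanned 12.3 to 34.8 CPM with a median of 21.4 CPM. Every Bmal1ΔcDC library was above the control median and 3 were above every control library, although the groups overlapped. The difference was 0.64 ± 0.17 (SE), with an exact two-sided permutation p of 0.00191 over 3136 arrangements within timepoints (the smallest possible is 0.000319) and an adjusted p of 0.0105. It was called neither with median-of-ratios scaling (0.48, adjusted p = 0.0566) nor with trimmed mean scaling (0.46, adjusted p = 0.0623). The values are sums over the whole gene, so reads from outside the floxed part are included, and excision cannot be read from them. Directions below are therefore those of libraries by their label.

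The core clock genes that were called were all higher in Bmal1ΔcDC libraries. Of 7 activators and nuclear receptors tested, 4 rose and none fell, with a list median of 0.64 against 0.19 for all genes. Their summed level was 57.1, 69.0 and 74.8 CPM in control and 74.2, 117 and 141 CPM in Bmal1ΔcDC libraries. Sham libraries of the control genotype were near the latter, at 90.1 to 182 CPM with a median of 116 CPM. Of 7 repressors 1 rose (14.3%) and of 4 output factors 1 rose (25%), shares near the 21.5% of all genes that were higher. Rora, which encodes RORα, was at 6.66, 11.0 and 16.6 CPM in control and at 16.4, 23.5 and 45.6 CPM in Bmal1ΔcDC libraries (1.19 ± 0.22, adjusted p = 0.0013). Only 1 Bmal1ΔcDC library lay below the highest control library, and sham libraries had a median of 32.1 CPM.

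Nr1d1, encoding REV-ERBα, averaged 3.26 ± 2.29 CPM at ZT15 and 1.08 ± 0.84 CPM at ZT21 in control mice (SD over 5 mice). In Bmal1ΔcDC mice it averaged 7.44 ± 2.23 CPM at ZT15 and 3.21 ± 0.92 CPM at ZT21 (SD over 3 mice). It was thus lower at ZT21 than at ZT15 in both genotypes, and higher in Bmal1ΔcDC libraries over both timepoints (1.30 ± 0.32, adjusted p = 0.00836). Cry1, whose protein inhibits CLOCK and BMAL1, averaged 9.44 ± 4.0 and 7.78 ± 2.01 CPM at ZT15 and ZT21 in control mice and 21.9 ± 1.20 and 12.4 ± 2.13 CPM in Bmal1ΔcDC mice (0.96 ± 0.21, adjusted p = 0.00413). At ZT15 the 3 Bmal1ΔcDC libraries lay above all 5 control libraries. Hlf, a transcription factor of the PAR bZIP family under clock control, was at 0, 0.579 and 1.28 CPM in control and at 0, 3.07 and 4.24 CPM in Bmal1ΔcDC libraries (1.5 ± 0.36, adjusted p = 0.00682), with the 0 in Bmal1ΔcDC ZT21 replicate 1. For none of these genes was the difference between genotypes itself called as different between ZT15 and ZT21.

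**Figure D1:**
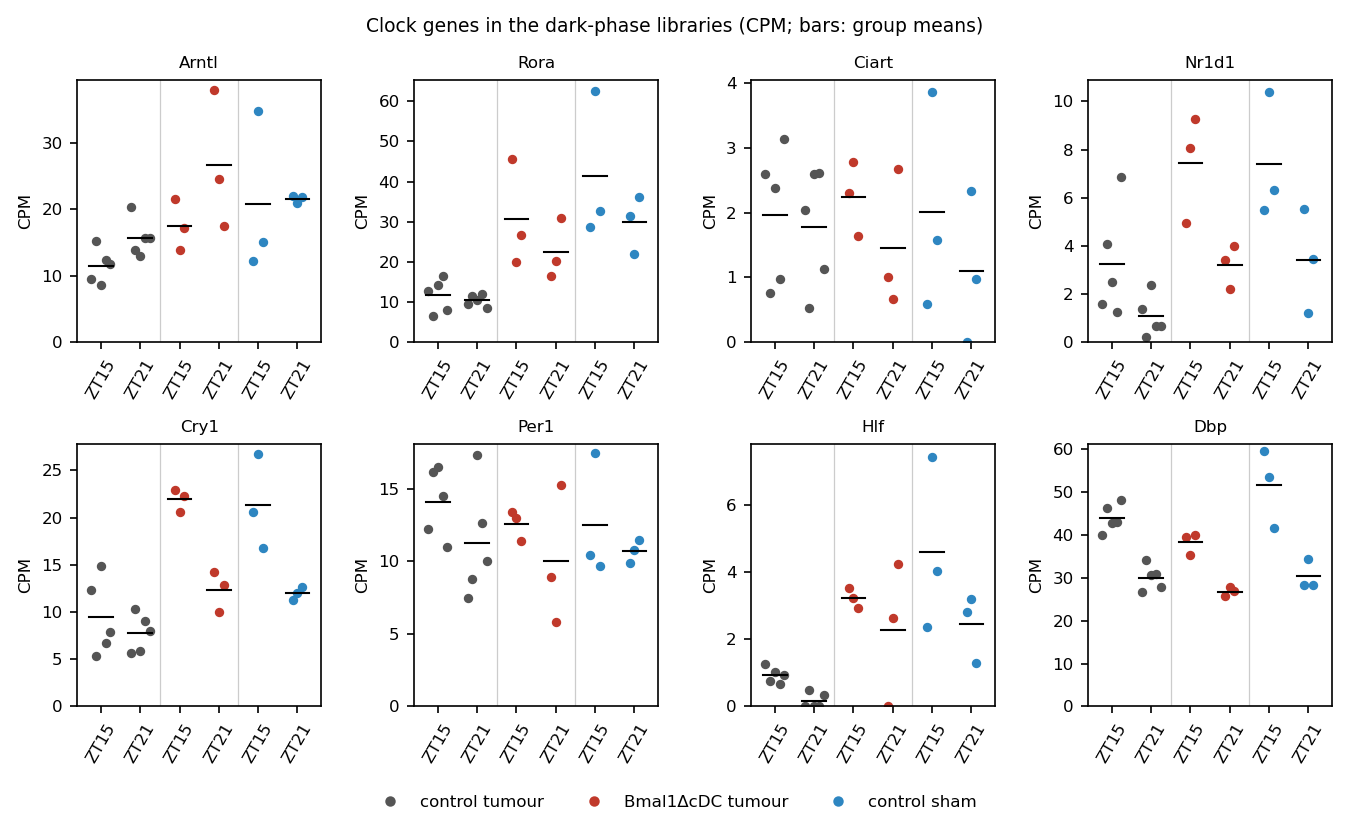
Levels of 8 clock genes (CPM, linear axes starting at 0) in each dark-phase library, at ZT15 and ZT21, in control mice with tumour cells (grey, 5 per timepoint), Bmal1ΔcDC mice with tumour cells (red, 3) and control mice with sham injection (blue, 3); points are libraries and bars group means. Rora, Cry1 and Hlf were higher in Bmal1ΔcDC than in control libraries with tumour cells, whereas Ciart, Per1 and Dbp overlapped without a call.

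The other clock genes did not pass the test. Per1 was at 7.51, 12.5 and 17.3 CPM in control and at 5.81, 12.2 and 15.3 CPM in Bmal1ΔcDC libraries (-0.17 ± 0.19, adjusted p = 0.528). Dbp, a PAR bZIP factor used as a clock readout, was at 26.7, 37.0 and 48.1 CPM in control and at 25.7, 31.6 and 40.1 CPM in Bmal1ΔcDC libraries (-0.18 ± 0.08, adjusted p = 0.103), but with median-of-ratios scaling Dbp was called lower (-0.34, adjusted p = 0.0102). The differences of Ciart (0.01 ± 0.31), Nr1d2 (0.10 ± 0.27), Per2 (0.39 ± 0.30), Clock (0.55 ± 0.27), Npas2 (-0.53 ± 0.22), Per3 (-0.46 ± 0.29), Cry2 (0.44 ± 0.22), Bhlhe40 (0.47 ± 0.20), Tef (-0.18 ± 0.16) and Nfil3 (0.07 ± 0.19) had adjusted p above 0.05, and those of Ciart, Nr1d2 and Nfil3 turned below 0 with median-of-ratios scaling. Bhlhe41 was too low to be tested, with at most 1.51 CPM.

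The E-box bound by BMAL1 can be shown in promoters of 3 of these genes, 1 that rose and 2 that did not pass the test. The 250 bases before the start site are given 5′ to 3′ in the sense of the gene (RefSeq, GRCm38.p6), in lower case with every CACGTG in capitals.
Cry1 (chr10:85185055-85185304, minus strand): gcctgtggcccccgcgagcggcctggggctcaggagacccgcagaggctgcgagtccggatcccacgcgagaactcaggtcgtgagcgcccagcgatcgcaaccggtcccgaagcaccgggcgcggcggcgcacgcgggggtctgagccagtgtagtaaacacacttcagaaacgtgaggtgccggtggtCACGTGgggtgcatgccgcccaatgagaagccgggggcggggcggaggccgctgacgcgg
Ciart (chr3:95882229-95882478, minus strand): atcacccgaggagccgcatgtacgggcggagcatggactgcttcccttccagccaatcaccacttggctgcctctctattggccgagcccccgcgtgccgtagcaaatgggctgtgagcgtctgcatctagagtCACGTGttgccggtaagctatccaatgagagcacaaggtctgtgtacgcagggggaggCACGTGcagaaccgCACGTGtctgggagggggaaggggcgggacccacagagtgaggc
Per1 (chr11:69098699-69098948, plus strand): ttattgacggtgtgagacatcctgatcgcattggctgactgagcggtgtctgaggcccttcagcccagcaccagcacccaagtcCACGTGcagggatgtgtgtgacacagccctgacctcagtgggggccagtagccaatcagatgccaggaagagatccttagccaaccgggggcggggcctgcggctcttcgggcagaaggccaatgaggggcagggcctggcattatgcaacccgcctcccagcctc
Ciart holds the motif 3 times, beginning 116, 58 and 44 bases before the start, while Cry1 holds it 60 and Per1 166 bases before it. In windows of 250 bases before to 50 after the start, CACGTG (the same on both strands) was found in 5 of the 16 clock genes with a promoter in the table (31.2%) and in 8.09% of all genes with one. The clock genes with it were Cry1, Ciart, Per1, Tef and Bhlhe41. A second start listed for Per1 had no CACGTG in the 250 bases before it. Among genes tested the share was 11.5%, against 13% of those higher and 10.6% of those lower in Bmal1ΔcDC libraries. A match of letters is no evidence of binding in these cells.

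Clec9a, the gene whose promoter drives the Cre, was lower in Bmal1ΔcDC libraries (chr6:129408862-129424764). It was at 1.30, 1.93 and 3.30 CPM in control and at 0, 0.582 and 1.68 CPM in Bmal1ΔcDC libraries, and 5 of the 6 lay below every control library. The difference was -1.28 ± 0.23 (adjusted p = 0.00139). Sham libraries of the dark phase reached 7.40 CPM. In the light phase the difference was -0.38 with an adjusted p of 0.441. Clec9a encodes the receptor DNGR-1 and marks type 1 conventional dendritic cells (cDC1), and it was the only 1 of 13 cDC1 genes tested that fell. Itgae, encoding CD103, was at 4.85, 7.45 and 15.5 CPM in control and at 9.92, 22.2 and 56.5 CPM in Bmal1ΔcDC libraries (1.57 ± 0.32, adjusted p = 0.00267). Cadm1, an adhesion molecule of cDC1, also rose (0.53 ± 0.11, adjusted p = 0.00334). These 2 were the cDC1 genes that rose, and 10 did not pass the test. With median-of-ratios scaling 2 cDC1 genes rose and 2 fell.

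Cd80, the co-stimulatory ligand at the centre of the study, did not differ detectably between genotypes over ZT15 and ZT21. The paper reports for it a time-of-day change that was abrogated in Bmal1ΔcDC mice, and also followed the protein. A genotype difference over these 2 timepoints does not test that change. Control libraries were at 7.39, 11.1 and 12.5 CPM and Bmal1ΔcDC libraries at 7.07, 10.6 and 16.0 CPM, with full overlap. The difference was -0.02 ± 0.17 (SE), with an exact two-sided permutation p of 0.924, and its sign depended on which library was left out. Of 13 co-stimulatory genes 3 rose and none fell (median 0.24), and the share of 23.1% was near that of all genes (21.5%). With median-of-ratios scaling 1 rose and 1 fell, and with centring in bins of length and GC content none rose and 1 fell. Icosl, the ligand of ICOS, was at 302, 414 and 499 CPM in control and at 491, 627 and 761 CPM in Bmal1ΔcDC libraries (0.62 ± 0.13, adjusted p = 0.00295). Cd83, a surface marker of mature dendritic cells, rose from a median of 1868 to 2525 CPM (0.42 ± 0.13, adjusted p = 0.0245). The call of Cd83 was lost with median-of-ratios scaling (0.25, adjusted p = 0.196) and without Bmal1ΔcDC ZT21 replicate 1 (adjusted p = 0.0576). Lgals9 was the third (0.55 ± 0.19, adjusted p = 0.0442), but its call was lost in 6 of 12 other settings, among them median-of-ratios scaling (adjusted p = 0.180), and in 11 of 16 omissions of a library.

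Antigen presentation showed small shifts. The immunoproteasome subunits Psmb8, Psmb9 and Psmb10, which shape peptides for MHC class I, were all lower in Bmal1ΔcDC libraries without overlap. Psmb9 was at 612, 756 and 839 CPM in control and at 439, 527 and 605 CPM in Bmal1ΔcDC libraries (-0.49 ± 0.10, adjusted p = 0.00267). Psmb10 differed by -0.37 ± 0.08 (adjusted p = 0.00382) and Psmb8 by -0.37 ± 0.09 (adjusted p = 0.00896). In the light phase the differences of Psmb9 (-0.13), Psmb10 (-0.11) and Psmb8 (-0.02) were not called. In total 4 of 14 genes of class I and peptide loading fell (28.6%, against 5.87% of all genes) and 2 rose (14.3%, against 21.5%), while with median-of-ratios scaling 6 fell and none rose. Among the 2 that rose was the chaperone Pdia3 (0.36 ± 0.07, adjusted p = 0.00279, not called with median-of-ratios scaling, adjusted p = 0.0929). Of 11 class II genes only H2-Aa was called, with 2189.9, 2564 and 3763 CPM in control and 1539.7, 1917 and 3133 CPM in Bmal1ΔcDC libraries (-0.41 ± 0.12, adjusted p = 0.0159). None of 24 interferon-stimulated genes was called (limma), 2 had an unadjusted p under 0.05, and their median was 0.10. At ZT15 4 of them were higher (median 0.54), where 10.3% of all genes were higher (median 0.25). At ZT21 2 of the 24 were lower (median -0.29), where 3.43% of all genes were lower (median 0.12). None of the 24 passed the test of a difference between timepoints. Without Bmal1ΔcDC ZT21 replicate 1, 2 were called higher over both timepoints. Of the migratory programme 2 of 20 genes rose and 2 fell, but with median-of-ratios scaling none rose and 8 fell, so no direction can be given for it. Ccl17, a chemokine for CCR4, was one of those that fell, from a median of 206 to 125 CPM (-0.60 ± 0.19, adjusted p = 0.0273), and was not called without Bmal1ΔcDC ZT21 replicate 1 (adjusted p = 0.0689).

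The genes with the smallest p-values differed many-fold. Lars2, encoding mitochondrial leucyl-tRNA synthetase (chr9:123366927-123462675), was at 1930.0, 2839 and 3708 CPM in control and at 105, 197 and 254 CPM in Bmal1ΔcDC libraries (-3.84 ± 0.15, adjusted p = 3.1e-10). Sham libraries lay between the groups, at 1074 to 1558 CPM. Gm20594 (-4.02), Mrgpra6 (-4.44), Rplp2-ps1 (-3.84), Gm5148 (-3.38), H2-Q2 (-2.99), Gm8909 (-2.43), Bcl2a1c (-2.10) and H2-Q4 (-1.84) were also lower in every Bmal1ΔcDC library than in any control library. Mrgpra6, a sensory receptor of the Mrgpr family, was at 6.76, 18.6 and 23.4 CPM in control, at 0.144, 0.345 and 0.530 CPM in Bmal1ΔcDC and at 0.181 to 0.327 CPM in sham libraries. H2-Q2, H2-Q4, Gm8909, Bcl2a1c, Gm5148 and Rplp2-ps1 held fractions of reads (values that are no whole multiple of 1 read) in 93.2% to 100% of all libraries, and as paralogs or pseudogenes that share sequence with other genes their levels are uncertain.

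Among the genes that rose, the glycolytic enzyme Gapdh was at 155, 191 and 245 CPM in control and at 486, 598 and 995 CPM in Bmal1ΔcDC libraries (1.74 ± 0.10, adjusted p = 1.92e-08). It was at 628 to 853 CPM in sham libraries, and held fractions of reads in 95.5% of all libraries. Cd69, an early activation receptor that retains lymphocytes in tissue, was at 18.5, 23.3 and 36.6 CPM in control and at 83.7, 123 and 143 CPM in Bmal1ΔcDC libraries (2.23 ± 0.16, adjusted p = 3.54e-07). Hmgb1, a chromatin protein and alarmin, was at 167, 205 and 236 CPM in control and at 458, 518 and 682 CPM in Bmal1ΔcDC libraries (1.37 ± 0.10, adjusted p = 3.54e-07). Sham libraries were at 72.1 to 202 CPM for Cd69 and at 500 to 658 CPM for Hmgb1, within or near the range of the Bmal1ΔcDC libraries. Myo1f (2.13), Fam110a (1.16), Ifngr1, a chain of the interferon-γ receptor (1.17), and Hspa5, the chaperone BiP of the endoplasmic reticulum (0.97), rose without overlap as well.

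A different order of groups was seen in a few genes of chromosome 7, where Bmal1ΔcDC libraries stood apart from both control groups. This order was not confined to them, as Bmal1ΔcDC libraries also stood apart from both control groups in Lars2, Tsc22d3 and Atp13a1. Trim12a, a member of the tripartite motif family (chr7:104299893-104315558), was at 17.4, 25.5 and 29.5 CPM in control with tumour cells and at 16.9 to 37.3 CPM in sham libraries, but at 0.0587, 0.104 and 1.43 CPM in Bmal1ΔcDC libraries (-4.98 ± 0.24, adjusted p = 1.86e-09). Its neighbour Trim30d fell from 18.8, 27.4 and 32.5 CPM to 0, 0.802 and 3.72 CPM (-4.35 ± 0.35, adjusted p = 9.4e-07). Trim34a fell from a median of 55.9 to 13.9 CPM (-1.77 ± 0.14, adjusted p = 9.14e-07). In the opposite direction, Trim34b was at most 0.322 CPM in control and at 6.60, 9.19 and 14.7 CPM in Bmal1ΔcDC libraries (4.09 ± 0.17, adjusted p = 3.1e-10). These 4 genes lie within 0.3 megabases, about 9 megabases from Arntl, and belong to a family of near-identical copies with fractions of reads in 54.5% to 86.4% of all libraries, so reads may be split between them.

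Further genes of the chromosome moved likewise. Ppfibp2, encoding a liprin (chr7:107595047-107748583), rose from 14.8, 20.1 and 30.8 CPM to 64.5, 81.6 and 160 CPM, with sham libraries at 18 to 28.2 CPM (2.03 ± 0.19, adjusted p = 4.17e-06). Art2b, an ADP-ribosyltransferase of the cell surface that held fractions of reads in 95.5% of all libraries, rose from a median of 2.11 to 20.7 CPM (2.89 ± 0.21), with sham libraries at 1.67 to 3.14 CPM. Hddc3, more distant on the same chromosome, rose from a median of 1.61 to 8.62 CPM (2.29 ± 0.18), with sham libraries at 0.786 to 2.16 CPM. All 7 of these genes differed in the same direction in the light phase, with differences from -5.13 for Trim12a to 4.24 for Trim34b. Within 10 megabases of Arntl, however, 25 of 95 genes were called (26.3%, against 27.4% of all genes), and 10 differed at least 2-fold (10.5%, against 5.26%). Within 10 megabases of Clec9a on chromosome 6 these were 41 of 146 (28.1%) and 15 (10.3%), among them Cd69 and Klrb1b. Of 15 genes that differed over 8-fold, 4 were on chromosome 7, which held 938 of the genes tested.

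**Figure D2:**
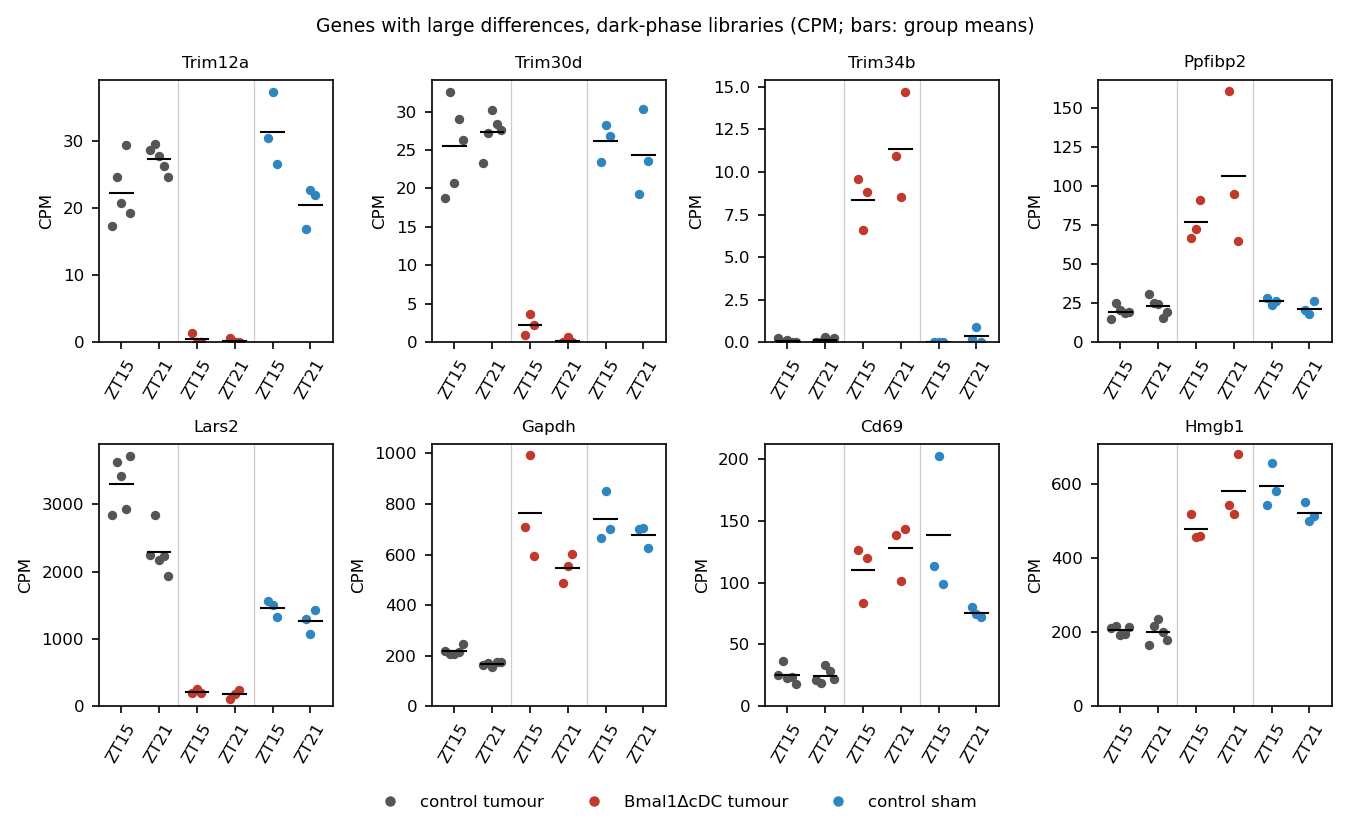
Levels of 8 genes with large differences (CPM, linear axes starting at 0) in each dark-phase library, at ZT15 and ZT21, with points for libraries and bars for group means. Trim12a, Trim30d, Trim34b and Ppfibp2 of chromosome 7 differed in Bmal1ΔcDC libraries (red) from both control groups, with tumour cells (grey) and sham (blue), Lars2 was lowest in Bmal1ΔcDC libraries, and for Gapdh, Cd69 and Hmgb1 the Bmal1ΔcDC and sham libraries were both above the controls with tumour cells.

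**Figure D3:**
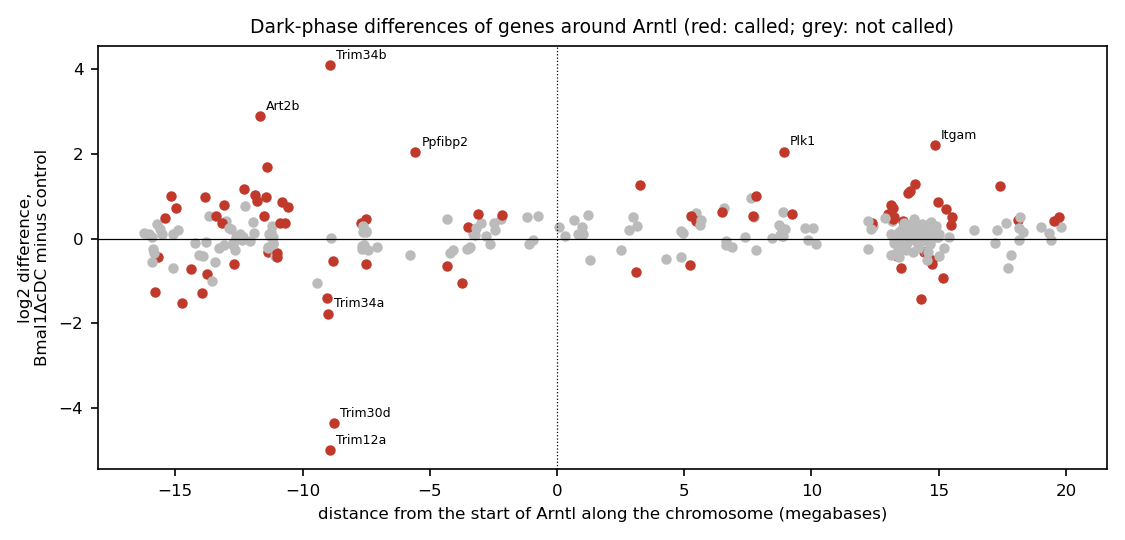
Difference between genotypes in the dark phase (log2 scale, Bmal1ΔcDC minus control) of the 284 genes tested within 20 megabases of Arntl, by distance from its midpoint (dotted line). Distances run between midpoints of genes, although the axis label names the start of Arntl. Red points were called at an adjusted p under 0.05 and grey points were not. Trim12a, Trim30d and Trim34b, about 9 megabases before Arntl, show the largest differences in either direction. In the same stretch Trim12c was not called (0.000839, adjusted p = 0.996, limma) and Trim30a differed by -0.52.

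Ribosomal protein genes of the cytosol were the largest group that fell together. Of 81 tested, 69 were lower in Bmal1ΔcDC libraries (85.2%, against 5.87% of all genes), 3 were higher (Rpl7l1, Rpl21 and Rpl37) and 9 did not pass the test. The list median was -0.77 against 0.19 for all genes. Their summed level was 31375, 40664 and 46775 CPM in control and 13207, 24767 and 32203 CPM in Bmal1ΔcDC libraries, so that only the highest Bmal1ΔcDC library reached the control range. Sham libraries spanned 27997 to 42639 CPM. Rpsa, a protein of the small subunit also known as a laminin receptor, was at 1444, 1555 and 1865 CPM in control and at 432, 756 and 819 CPM in Bmal1ΔcDC libraries (-1.22 ± 0.13, adjusted p = 2.18e-05). Rplp0, of the ribosomal stalk, fell from a median of 1085 to 649 CPM (-0.90 ± 0.14, adjusted p = 0.000366), and Rps28 from 204 to 94.8 CPM (-1.26 ± 0.16, adjusted p = 0.000119). The lowest sum belonged to Bmal1ΔcDC ZT21 replicate 1, without which 66 genes were lower, with a median of -0.58. With median-of-ratios scaling 72 were lower and 2 higher. In the light phase, where 6.22% of all genes were lower and 8.38% higher, 12 of the 81 were lower and 5 higher (median -0.17). No gene of the list passed the test of a difference between phases at an adjusted p under 0.05 (limma). Of the 81 genes 74 had an unadjusted p under 0.05 in that test, against 2708 of all 11963 genes.

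Other genes of protein production and turnover moved less. Of 77 mitochondrial ribosomal protein genes 8 fell (10.4%, against 5.87% of all genes) and 5 rose (6.49%, against 21.5%), led by Mrpl14 (121, 143 and 165 CPM in control and 48.8, 86.1 and 97.0 CPM in Bmal1ΔcDC libraries, -0.86 ± 0.14, adjusted p = 0.000514). Of 85 genes of oxidative phosphorylation 12 fell (14.1%) and 4 rose (4.71%), with a median of -0.17. Atp5g2, of the proton channel of ATP synthase, fell from a median of 201 to 129 CPM (-0.75 ± 0.12), and Ndufs1, of complex I, rose from 51.1 to 70.3 CPM (0.66 ± 0.13). Of 38 proteasome genes 6 fell and 6 rose (15.8% each). These 3 lists turned towards lower values with median-of-ratios scaling, where 18 mitochondrial ribosomal protein genes were lower and 0 higher, 32 oxidative phosphorylation genes lower and 2 higher, and 13 proteasome genes lower and 2 higher. Without Bmal1ΔcDC ZT21 replicate 1, 6 genes of oxidative phosphorylation were lower and 4 higher.

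**Figure D4:**
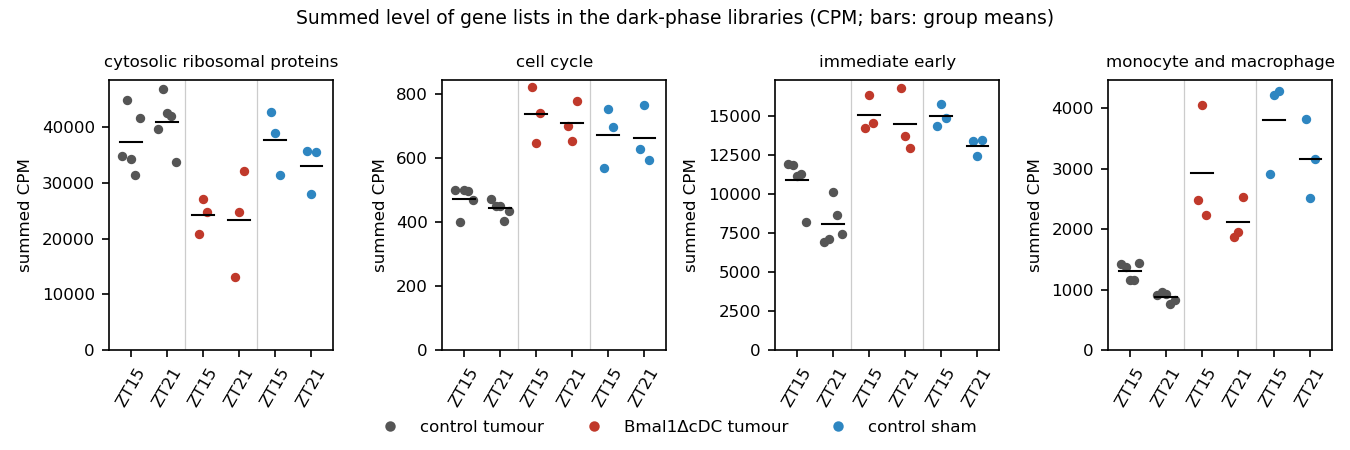
Summed level (CPM, linear axes starting at 0) of 4 gene lists in each dark-phase library, at ZT15 and ZT21, in control mice with tumour cells (grey), Bmal1ΔcDC mice with tumour cells (red) and control mice with sham injection (blue); points are libraries and bars group means. Ribosomal protein genes were lower in Bmal1ΔcDC libraries than in control libraries with tumour cells, and genes of the cell cycle, immediate early genes and genes of monocytes and macrophages were higher.

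Genes of the cell cycle were higher in Bmal1ΔcDC libraries. Of 24 tested 21 rose and none fell (87.5%, against 21.5% of all genes), with a median of 0.90. Their summed level was 402, 462 and 502 CPM in control and 648, 723 and 824 CPM in Bmal1ΔcDC libraries, without overlap, and 571 to 767 CPM in sham libraries. Rrm2, of ribonucleotide reductase, was at 3.40, 7.08 and 13.7 CPM in control and at 14.5, 22.9 and 30.1 CPM in Bmal1ΔcDC libraries (1.68 ± 0.23, adjusted p = 0.000185). Ccna2, encoding cyclin A2, rose from a median of 5.56 to 14.0 CPM (1.23 ± 0.15), Mcm2, of the replicative helicase, from 22.4 to 42.3 CPM (0.88 ± 0.13), and the proliferation marker Mki67 from 10.8 to 19.7 CPM (0.82 ± 0.11). With median-of-ratios scaling 16 rose and none fell. In the light phase, where 8.38% of all genes were higher, 10 rose, with a median of 0.49. In bulk samples, a larger share of cells that express a gene and more of its RNA per cell cannot be told apart.

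Immediate early genes, which are transcribed soon after a stimulus, were higher as well. Of 17 tested 13 rose and none fell (76.5%, against 21.5% of all genes), with a median of 0.92. Fos was at 371, 671 and 1016 CPM in control and at 1219, 1675 and 2131 CPM in Bmal1ΔcDC libraries (1.36 ± 0.16, adjusted p = 4.7e-05). Nr4a1, a nuclear receptor, rose from 31.6, 64.4 and 133 CPM to 258, 287 and 390 CPM (2.13 ± 0.25, adjusted p = 5.36e-05). Egr2 rose from a median of 12.5 to 56.3 CPM (2.43 ± 0.29) and Jund from 200 to 401 CPM (1.02 ± 0.11). Sham libraries were at 1160.0 to 1971 CPM for Fos and at 257 to 602 CPM for Nr4a1. In the light phase, where 8.38% of all genes were higher, 14 rose (median 0.82).

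Of 13 genes of the unfolded protein response 6 rose and none fell (46.2%, against 21.5% of all genes, median 0.39), while with median-of-ratios scaling 3 rose. Among the 6 was the endoplasmic reticulum chaperone gene Hspa5, at 320, 354 and 404 CPM in control and at 579, 725 and 781 CPM in Bmal1ΔcDC libraries. Pdia4 (0.81 ± 0.13) and the transcription factor Xbp1 (0.62 ± 0.11) also rose. The whole list summed to a median of 1416 CPM in control, 1917 CPM in Bmal1ΔcDC and 1743 CPM in sham libraries. Of 16 glycolysis genes 8 rose and none fell (50%, median 0.48), among them Pfkp (0.62 ± 0.13, adjusted p = 0.00347), and with median-of-ratios scaling 4 rose. Their sum had a median of 2567 CPM in control, 3639 CPM in Bmal1ΔcDC and 3681 CPM in sham libraries. Of 23 genes of cholesterol synthesis 9 rose (39.1%) and 2 fell (8.7%). Sqle, encoding squalene epoxidase, was at 35.9, 54.6 and 79.5 CPM in control and at 74.6, 99.1 and 118 CPM in Bmal1ΔcDC libraries (0.82 ± 0.13, adjusted p = 0.000632), and sham libraries had a median of 46.5 CPM. The enzyme gene Msmo1 rose (0.60 ± 0.11) and Pmvk fell (-0.44 ± 0.09). With median-of-ratios scaling 4 rose and 4 fell, so the list had no common direction. Of 12 heat shock genes 4 rose (33.3%, against 21.5% of all genes) and 1 fell (8.33%, against 5.87%). With median-of-ratios scaling 3 of these 12 rose and 1 fell. Their sum had a median of 4930 CPM in control and 4875 CPM in Bmal1ΔcDC libraries.

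Tsc22d3 (GILZ), a glucocorticoid-induced gene, was at 243, 301 and 333 CPM in control, at 440, 726 and 812 CPM in Bmal1ΔcDC and at 246 to 348 CPM in sham libraries, so that Bmal1ΔcDC libraries lay above both (1.21 ± 0.12, adjusted p = 1.21e-05). Fkbp5, another glucocorticoid target, differed by 0.55 ± 0.18 (adjusted p = 0.0341), and its call was lost in 4 of 12 other settings, among them median-of-ratios scaling (adjusted p = 0.151), and in 7 of 16 omissions of a library. Per1, also induced by glucocorticoids, differed by -0.17. Of 11 such targets 3 rose and none fell (27.3%, against 21.5% of all genes), with a median of 0.13 against 0.19 for all genes. Of 18 genes of PI3K, AKT and mTOR signalling 3 were called higher (Rictor, Pik3cd and Pik3cb, 16.7%, against 21.5% of all genes) and 1 lower. With median-of-ratios scaling 2 were higher and 3 lower, and in the light phase 1 was higher and 7 lower, so no direction can be given for the list. Rictor, the defining subunit of mTOR complex 2, was at 22.5, 30.5 and 47.4 CPM in control and at 44.7, 54.6 and 63.7 CPM in Bmal1ΔcDC libraries (0.79 ± 0.13, adjusted p = 0.000579).

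Genes that mark monocytes and macrophages were also higher in Bmal1ΔcDC libraries. Of 15 genes tested 11 rose and none fell (73.3%, against 21.5% of all genes), with a median of 1.06. They summed to 770, 1055 and 1448 CPM in control, 1879, 2358 and 4058 CPM in Bmal1ΔcDC and 2514 to 4289 CPM in sham libraries. Lyz2, encoding lysozyme, was at 456, 621 and 859 CPM in control and at 1110.2, 1466 and 2273 CPM in Bmal1ΔcDC libraries (1.23 ± 0.13, adjusted p = 2.09e-05). Ccr2, the receptor for CCL2, rose from a median of 9.07 to 49.0 CPM (2.72 ± 0.25) and Csf1r from 23.3 to 68.6 CPM (1.54 ± 0.19). With median-of-ratios scaling 9 rose. Lyz2 and Ccr2 held fractions of reads in 90.9% and 95.5% of all libraries. No gene of the list was at 0 in all 16 libraries.

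Of 12 genes of type 2 conventional dendritic cells (cDC2) 5 rose and none fell (41.7%, against 21.5% of all genes, median 0.66), while with median-of-ratios scaling 3 rose. Klf4 was at 9.87, 13.8 and 24.4 CPM in control and at 23.4, 31.2 and 49.0 CPM in Bmal1ΔcDC libraries (1.18 ± 0.19, adjusted p = 0.000605), and Itgam, encoding CD11b, rose from a median of 2.79 to 17.5 CPM (2.20 ± 0.43). Of 6 Langerhans cell genes 4 rose (66.7%), and 3 with median-of-ratios scaling. Epcam, an adhesion molecule of these cells, was at 34.6, 43.9 and 48.8 CPM in control and at 55.9, 79.8 and 97.4 CPM in Bmal1ΔcDC libraries (0.83 ± 0.11, adjusted p = 0.00015). Cd207, encoding langerin, differed by 0.63 ± 0.17 (adjusted p = 0.013) and was not called with median-of-ratios scaling (adjusted p = 0.0581). Of 6 plasmacytoid dendritic cell genes 4 rose (66.7%), but 2 with median-of-ratios scaling and 1 with the replicate block. Siglech rose from 3.26, 6.49 and 11.4 CPM to 15.3, 21.2 and 42.2 CPM (1.75 ± 0.25, adjusted p = 0.000234). Sham libraries were raised over control as well. Median sums in control, Bmal1ΔcDC and sham libraries were 442, 553 and 619 CPM for cDC2 genes. They were 399, 470 and 467 CPM for Langerhans cell genes and 86.0, 122 and 195 CPM for plasmacytoid dendritic cell genes.

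Of 11 genes of natural killer (NK) cells 4 rose and none fell (36.4%, against 21.5% of all genes, median 0.63), and their sum was 81.1, 95.3 and 128 CPM in control, 102, 128 and 283 CPM in Bmal1ΔcDC and 190 to 798 CPM in sham libraries. Of 12 B cell genes 3 were higher (25%) and of 24 T cell genes 4 were higher (16.7%) and 1 lower, shares near or below that of all genes. With median-of-ratios scaling 1 B cell gene and 3 T cell genes were higher. Blk, a Src-family kinase of B cells, rose from a median of 1.71 to 18.3 CPM (2.95 ± 0.28). Gata3 (1.39 ± 0.19) rose without overlap. Melanoma genes (2 of 7 tested) and red cell genes (2 of 5 tested) had no call (limma, unadjusted p under 0.05 in 1 and 0 of them), stroma and endothelium had 1 gene higher and 1 lower of 6, and granulocytes 1 higher of 6. Without Bmal1ΔcDC ZT21 replicate 1 the counts of genes that rose were 11 for monocytes and macrophages, 4 for cDC2, 4 for Langerhans cells, 5 for plasmacytoid dendritic cells, 6 for NK cells, 3 for B cells and 6 for T cells. The part of these cells in the results above was not tested.

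Of 13 chemokine genes 5 rose (38.5%, against 21.5% of all genes) and 2 fell (15.4%, against 5.87%). Ccl4 was at 3.45, 6.06 and 23.5 CPM in control and at 15.2, 25.9 and 47.9 CPM in Bmal1ΔcDC libraries (1.91 ± 0.29, adjusted p = 0.00036), and Ccl3, a chemokine of the same family, rose from a median of 2.30 to 9.18 CPM (1.69 ± 0.26). Ccl2 rose from a median of 1.46 to 6.66 CPM (2.52 ± 0.49). Cxcl16, the ligand of CXCR6, fell from 2136, 2207 and 2358 CPM to 1456, 1684 and 1938 CPM (-0.42 ± 0.07, adjusted p = 0.000886), with sham libraries at 1507 to 1954 CPM and fractions of reads in 97.7% of all libraries. Of 13 cytokine genes 3 were called higher (Tgfb1, Il1a and Il10, 23.1%), a share near that of all genes, and with median-of-ratios scaling 1 was. Il10 was at 0 in at least 1 library of either genotype and lost its call in 6 of 11 other settings and in 11 of 16 omissions of a library.

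**Figure D5:**
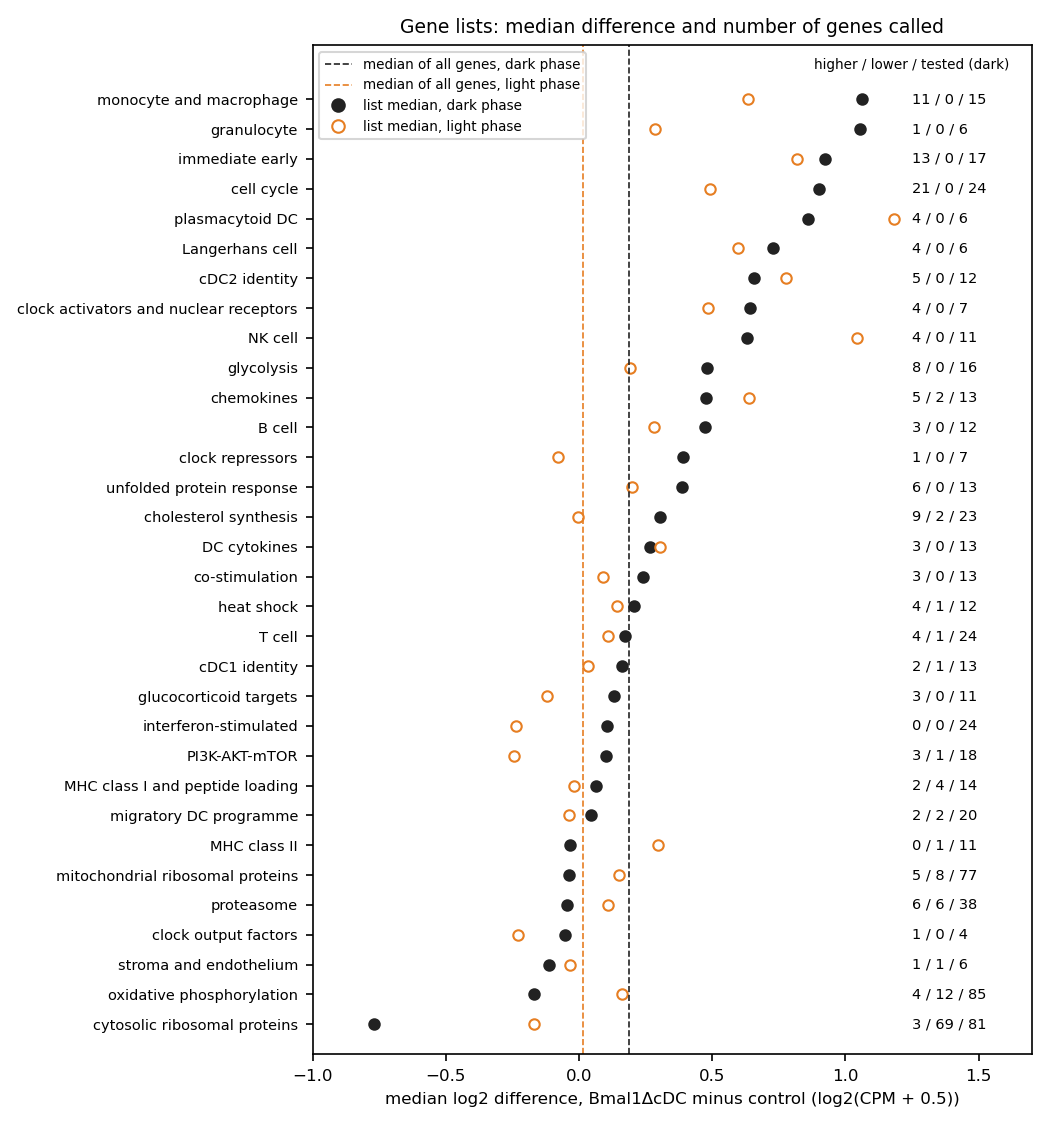
Median difference between genotypes (log2 scale, Bmal1ΔcDC minus control) of each gene list with at least 4 genes tested, in the dark phase (filled) and in the light phase (open), with the medians of all genes as dashed lines and, at the right, the number of genes higher, lower and tested in the dark phase. Cytosolic ribosomal proteins (-0.77) and genes of monocytes and macrophages (1.06) mark the ends of the dark-phase range.

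The genotypes differed at both timepoints. At ZT15 1470 genes were called (12.3%), 1230 higher (10.3%) and 240 lower (2.01%), and at ZT21 1183 (9.89%), 773 higher (6.46%) and 410 lower (3.43%). Of these 541 were called at both in the same direction (36.8% of those at ZT15 and 45.7% of those at ZT21) and 3 in opposite directions. Without Bmal1ΔcDC ZT15 replicate 1 the count at ZT15 was 547, and without Bmal1ΔcDC ZT21 replicate 1 that at ZT21 was 528. With median-of-ratios scaling the count at ZT15 was 788, 364 higher and 424 lower, and that at ZT21 was 1028, 440 higher and 588 lower. Only Tdrd9, a helicase of the piRNA pathway, differed between ZT15 and ZT21 in its genotype effect (-1.93 ± 0.15, adjusted p = 2.41e-05), while 1002 genes had an unadjusted p under 0.05. Tdrd9 was listed at 0 in all 10 control libraries and in Bmal1ΔcDC libraries at ZT21, and at 1.12 to 1.69 CPM in the 3 at ZT15.

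The light-phase libraries, which share no sample with those of the dark phase, gave 1747 called genes (14.6%), 1003 higher (8.38%) and 744 lower (6.22%), with a median over all genes of 0.02. Of the 3280 genes called in the dark phase 856 were called in the same direction in the light phase (26.1% of these and 49.0% of those of the light phase) and 7 in the opposite direction. Among the genes higher in the dark phase 79.1% also had a value above 0 in the light phase, where 52.2% of all genes did, and 90.7% of those lower had a value below 0. Of the 629 genes with at least 2-fold differences, 310 were called in both phases. Depth separated the genotypes in the light phase too (21126495 to 27557466 reads in control and 29806373 to 55799163 reads in Bmal1ΔcDC libraries).

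The genotype effect itself differed between phases in 59 genes (0.493%), of which 57 had the more positive difference in the dark phase (0.476%) and 2 the more negative (0.0167%). Myo7a, an unconventional myosin, was higher in Bmal1ΔcDC libraries in the dark phase (0.969, 1.47 and 4.01 CPM in control, 1.94, 4.33 and 7.28 CPM in Bmal1ΔcDC libraries, 1.01 ± 0.29) and lower in the light phase (-1.71 ± 0.26), with a difference of 2.71 ± 0.38 between phases (adjusted p = 0.00172). Atp13a1, an ATPase of the endoplasmic reticulum, was at 22.5, 34.5 and 47.1 CPM in control, at 56.1, 65.4 and 87.3 CPM in Bmal1ΔcDC and at 20.2 to 41.2 CPM in sham libraries of the dark phase (0.99 ± 0.14), against -0.38 ± 0.18 in the light phase. With median-of-ratios scaling 4 genes differed between phases.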

How the data were processed

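Sorted CD11c+MHCIIhigh cells were profiled by RNA-seq (SMART-Seq v4, Nextera XT, single reads of 50 bases). The authors aligned reads to mm10 with STAR 2.7.0, counted them per gene with HTSeq 0.9.1 and deposited CPM values, here used as 1 column per library. Reads per library were recovered from the steps in these values (tolerance 0.02 reads). In 1425 genes values were fractions of reads in more than 50% of the libraries, so no count test was run. A gene was tested where 5 or more libraries reached 1 CPM (11963 of 14699), and log2(CPM + 0.5) was fitted with limma 3.58.1 (R 4.3.3), genotype and timepoint in the model, with Benjamini-Hochberg adjustment. Effects at ZT15 and ZT21, in the light phase, and their differences were fitted likewise. Arntl and Cd80 were also tested by exact permutation within timepoints. The scripts were tested on simulated data.

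Members and gene lists were chosen with earlier results of these data known. Named were Arntl, Clec9a, Cd80, all clock genes, the 10 genes with the smallest p in each direction, the 3 with the smallest p in each interaction, up to 4 called genes per list (where none was called, the 1 with the smallest p) and up to 6 called genes near Arntl and Clec9a. Genes named outside that rule were chosen after their values were seen. Levels are not scaled to gene length. Alternatives covered scaling, pseudocount, filters, model settings, the replicate block and leaving out each library. Sham libraries entered no test. A few genes of the lists are counted but not reported here. CPM hold no strand information, and the strand setting of the counting is not given in the sources used here.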

Additional observations from a re-analysis of the deposited data

Results flagged for a closer look

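In 17 of 300 groups of 5 control libraries (5.67%), 1 library was far from the other 4 by Dixon's criterion, which chance meets in about 1 in 20 groups. Hspa5 was at 320.2 CPM in control ZT15 replicate 2 and at 391 to 404 CPM in the other 4. Itgam was at 7.73 CPM in control ZT21 replicate 4 and at 1.56 to 2.90 CPM in the other 4. Clec4a2 was at 4.34 CPM in control ZT21 replicate 1 and at 1.07 to 1.80 CPM in the other 4. Ccl4 was at 23.5 CPM in control ZT15 replicate 2 and at 5.54 to 9.60 CPM in the other 4. Herpud1 was at 385 CPM in control ZT21 replicate 3 and at 318 to 336 CPM in the other 4. Rrm2 was at 13.7 CPM in control ZT15 replicate 5 and at 6.32 to 7.86 CPM in the other 4. Dusp1 was at 1135 CPM in control ZT15 replicate 5 and at 1623 to 1821 CPM in the other 4. Ms4a1 was at 8.77 CPM in control ZT15 replicate 1 and at 4.04 to 5.34 CPM in the other 4. Klrb1c was at 2.78 CPM in control ZT21 replicate 1 and at 0.0804 to 0.153 CPM in the other 4. Gzma was at 3.76 CPM in control ZT21 replicate 1 and at 0.846 to 1.69 CPM in the other 4. Retnlg was at 0.0866 CPM in control ZT21 replicate 5 and at 0 in the other 4. Siglech was at 11.4 CPM in control ZT21 replicate 3 and at 3.26 to 5.36 CPM in the other 4. Cox6a2 was at 0.603 CPM in control ZT21 replicate 2 and at 0.972 to 1.10 CPM in the other 4. Ccl19 was at 79.9 CPM in control ZT15 replicate 2 and at 40.5 to 46.3 CPM in the other 4. Hbb-bs was at 0.213 CPM in control ZT21 replicate 2 and at 0 in the other 4. Rpl7l1 was at 142 CPM in control ZT21 replicate 1 and at 111 to 118 CPM in the other 4. Mrps6 was at 104 CPM in control ZT21 replicate 5 and at 82.4 to 87.5 CPM in the other 4.

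The genotype effect differed between timepoints or phases in 5 of the genes named. For Tdrd9 the difference between ZT21 and ZT15 was -1.93 on the log2 scale (adjusted p = 2.41e-05, limma), with values above 0 in the 3 Bmal1ΔcDC libraries at ZT15 and in none of the other 13 libraries. For Myo7a the dark effect exceeded the light effect by 2.71 (adjusted p = 0.00172) and the 2 effects had opposite signs. For Atp13a1 the excess was 1.37 (adjusted p = 0.00613). For Zfp667 it was 2.57 (adjusted p = 0.0200), with dark-phase levels of 0, 0.352 and 1.28 CPM in control and 0.374, 2.72 and 6.02 CPM in Bmal1ΔcDC libraries (lowest, median and highest). For Rictor it was 0.71 (adjusted p = 0.0321), with a light-phase effect of 0.08.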

How the results depend on the processing

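The control libraries held fewer reads than every Bmal1ΔcDC library, so low genes are less precise in controls, and depth was not separated from genotype. Replicate numbers are shared between groups, and the deviations of same-numbered libraries had correlations of 0.00672 to 0.0804. These values cannot show whether such libraries share an experiment or a day of sorting, which the labels do not give. With the replicate block the counts of called genes were 1957 in the dark phase, 492 at ZT15, 640 at ZT21, 2 for the difference between timepoints, 758 in the light phase and 35 for the difference between phases. Of 135 called genes among those named, 87 kept their call under every alternative, 48 lost it under at least 1, and none changed sign. The cause of the changes below was not tested.

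At ZT15 the count was 788 with median-of-ratios and 793 with trimmed mean (TMM) scaling, against 1470. In the dark phase TMM scaling gave 2378 genes (1046 higher, 1332 lower) and centring in bins of length and GC, added after the data were seen, 2412 (809 higher, 1603 lower). At ZT21 it was 2947 with array weights and 1870 with all 44 libraries in the fit, against 1183. For the difference between timepoints it was 3 with a pseudocount of 0.1, 3 with no filter, 14 with array weights, and 0 with a mean of at least 10 CPM, with an intensity trend and with all 44 libraries. For the difference between phases it was 4 with median-of-ratios scaling, 14 with TMM, 161 with a mean of at least 10 CPM, 221 with an intensity trend and 1441 with array weights, against 59.

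Leaving out 1 library at a time, the count ranged from 2634 to 3329 in the dark phase, 547 (without Bmal1ΔcDC ZT15 replicate 1) to 1981 at ZT15, 528 (without Bmal1ΔcDC ZT21 replicate 1) to 1270 at ZT21, 1 to 12 (without control ZT15 replicate 2) for the difference between timepoints, 1367 to 2365 in the light phase, and 19 (without Bmal1ΔcDC ZT21 replicate 1) to 1255 (without control ZT3 replicate 3) for the difference between phases. It moved by over 1.5 times in 4 of 16 omissions at ZT15, 3 of 16 at ZT21, 9 of 16 for timepoints and 20 of 32 for phases.

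Genes that changed sign were not called. The difference of Cd80 ranged from -0.12 to 0.0878 over omissions in the permutation test and from -0.14 to 0.0976 in the fit, and was 0.0407 with array weights. The difference of Arntl ranged from 0.50 to 0.77 over omissions. Ciart was at -0.12 with median-of-ratios scaling, -0.14 with TMM, -0.0859 with array weights and -0.15 with bin centring, and ranged from -0.14 to 0.17 over omissions. Nfil3 was at -0.0998, -0.12, -0.0205 and -0.15 under the same settings and -0.13 with the replicate block, and ranged from -0.0147 to 0.15. Nr1d2 was at -0.0664 with median-of-ratios scaling, -0.0834 with TMM and -0.13 with bin centring, and ranged from -0.0734 to 0.37. Abhd16b, among the 3 genes with the smallest p for the difference between timepoints, was at 0.000312 in the dark phase, -0.00732 with a pseudocount of 1, -0.15 with median-of-ratios scaling, -0.16 with TMM, -0.0157 with the replicate block and -0.22 with bin centring, and ranged from -0.11 to 0.17.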

Other observations

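Nnt, a mitochondrial enzyme gene that is deleted in some C57BL/6 substrains, was at 8.93, 17.4 and 34.5 CPM (lowest, median and highest) in the control libraries of the dark phase, at 25.5, 30.4 and 48.4 CPM in Bmal1ΔcDC libraries and at 16.4 to 25.9 CPM in sham libraries. The difference was 0.79 ± 0.22 (SE, adjusted p = 0.0144, limma), with overlap of the groups, and 0.09 in the light phase. With median-of-ratios scaling Nnt was not called (adjusted p = 0.0529).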
